A study of Daphnia magna with 48 samples.

Results

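Water fleas exposed to copper for 4 days were compared with water fleas exposed to copper for 1 day, using 8 of the 48 RNA sequencing libraries of the study, 4 for each day. The libraries were chosen by their labels alone: copper treatment, sampled after 4 days or after 1 day. Each was made from whole bodies of *Daphnia magna*, a small freshwater crustacean, taken from a field population kept in M4, an artificial culture medium, with 16 hours of light and 8 of darkness and food every day. The other libraries came from animals given copper for 2 days, and from animals given copper with arsenic (the mixture), arsenic alone, or neither metal (control), each after 1, 2 and 4 days with 4 libraries per group. Control libraries of days 4 and 1 were used to tell which changes unexposed animals share. The sources used here give neither the dose nor the age, and they do not say how many animals went into a library. Whether the 4 libraries of a group stand for 4 cultures is not stated. With all libraries fitted, a p-value sets a change against the spread within groups of these 48 libraries alone. That spread may be technical.

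Copper is a cofactor of many enzymes, including those of mitochondrial respiration, and becomes toxic when it exceeds what the cell can bind and export. Animals hold it with metallothioneins, small cysteine-rich proteins, and move it with dedicated transporters and chaperones. Daphnia grow by moulting through successive instars, and adult females release and provision a brood with each moult, so transcripts of unexposed animals can also differ between days. In this design the time spent in copper, the age of the animals and anything shared by libraries of 1 sampling day cannot be told apart within the copper libraries. In whole bodies, fewer cells of a type and less RNA per cell cannot be told apart either.

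The deposited table holds 16066 genes under identifiers that start with Dapma7bEVm. None of them matched the available gene table, so genes are given by identifier, with no name, function, location or sequence, and no tissue or cell type marker could be checked. Single genes are uncertain to the extent that their reads may come from close paralogs or from genes that overlap them, which could not be checked without an annotation. Total counts per copper library ran from 12.27 to 15.75 M (M, mega) on day 4 and from 10.11 to 15.05 M on day 1. Between 37 and 50 of the genes had no count in a copper library of day 4, against 51 to 197 in a copper library of day 1. Copper libraries of 1 day resembled each other, with a median correlation with the rest of their group (log2 scale, across genes) of 0.979 to 0.98 on day 4 and 0.966 to 0.97 on day 1. Among the controls, replicate 4 of day 1 stood apart, with a median correlation of 0.944 and 479 genes without a count, and the counts that use the control list are given with and without it. Copper day-1 replicates 1 and 3 resembled it in the scaling factors given below.

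Over 1 in 10 genes differed between days 4 and 1 of copper. Of 15813 genes with enough counts to be tested, 1786, or 11.3%, were called, meaning an adjusted p under 0.05 in edgeR's quasi-likelihood test. Of these, 1013 (6.41%) were higher on day 4 and 773 (4.89%) were lower. At an unadjusted p under 0.05 the number was 4494. Under the scaling used here, the rises were larger than the falls. Genes higher on day 4 had a median log2 fold change of 0.80, with the middle 50% between 0.58 and 1.11. Genes lower on day 4 had a median of -0.47, with the middle 50% between -0.58 and -0.37. Over all tested genes the median was -0.02.

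The largest changes were nearly all rises. A change of 2-fold or more was reached by 330 of the genes higher on day 4, which is 32.58% of them, and by 28 of the genes lower on day 4, which is 3.622%. Rises of 4-fold or more numbered 41 and falls of that size 5. Rises of 8-fold or more numbered 16 and no fall reached that size. The median gene among those higher on day 4 had 61.2 CPM on day 4 and 36.7 CPM on day 1, where CPM is counts per M counts of the scaled library. The median gene among those lower on day 4 had 47.2 CPM on day 4 and 64.3 CPM on day 1.

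The 4 day-4 libraries all lay above or all lay below the 4 day-1 libraries in 3304 genes, or 20.9% of those tested, beside the 11.3% called. Such a separation held for 919 of the genes called higher (90.72%) and for 601 of those called lower (77.75%). In controls the days were separated in 1664 tested genes, or 10.5%, and in 1969, or 12.5%, without day-1 replicate 4, where 4 libraries face 3 and separate more easily. Genes were also divided into 5 classes of equal size by mean log2 CPM, which here follows transcript length as well as abundance. In the class with the fewest reads, 53 genes were called higher and 14 lower, with median log2 fold changes of 1.92 and -1.80. In the class with the most reads, 426 were called higher and 356 lower, with medians of 0.70 and -0.41. Smaller changes were thus called mainly where reads were many.

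How many genes were called depended on single libraries, and the falls did so more than the rises. Leaving out replicate 1, 2, 3 or 4 of day 4 gave 898, 713, 576 or 569 genes higher and 696, 355, 251 or 183 lower. Leaving out replicate 1, 2, 3 or 4 of day 1 gave 547, 1232, 438 or 941 genes higher and 112, 1164, 141 or 455 lower. Without day-1 replicate 3, 429 of the 438 genes higher and 137 of the 141 genes lower were among those called with all libraries. The spread was wider on day 1: the median SD of log2 CPM within the group was 0.203 on day 4 and 0.289 on day 1, and day 1 had the larger SD in 11046 genes (69.85%).

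**Figure D1:**
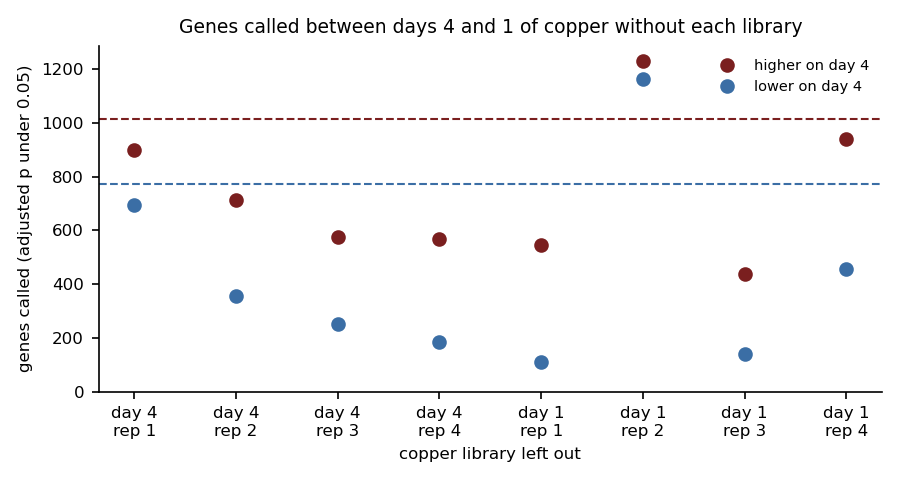
Number of genes called higher (dark red) or lower (blue) on day 4 than on day 1 of copper when 1 of the 8 copper libraries is left out, with the counts from all libraries as dashed lines (1013 and 773). Leaving out day-1 replicate 2 raises both counts, to 1232 and 1164, and leaving out day-1 replicate 1 leaves 112 genes lower.

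The balance of rises and falls also depended on how the libraries were scaled. With trimmed mean (TMM) scaling, 56.7% of the called genes were higher on day 4. With size factors of the kind DESeq2 uses there were 1031 higher and 721 lower, or 58.8% higher. With scaling to the total count alone there were 750 higher and 2353 lower, or 24.2% higher, and the median log2 fold change of all genes was -0.16 in place of -0.02. The TMM factors themselves differed by day, at 0.929 to 0.974 in the 4 copper libraries of day 4 and 1.01 to 1.09 in those of day 1. Over all treatments, the highest of day 1 were copper replicate 3 (1.092), mixture replicate 1 (1.088), control replicate 4 (1.073) and copper replicate 1 (1.066). The control library that stood apart was thus not alone in this respect. Leaving out copper replicate 1 or 3 of day 1 gave the fewest genes called in each direction. Directions and sizes, above and below, are relative to the TMM scaling. The sizes of rises and falls were not compared under the other scalings. The 2 genes named for each direction of this comparison kept their direction under each scaling. Their choice as the largest changes favours this, and it does not speak for the other called genes.

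Genes named within copper were taken from those whose 2 days do not overlap, so a lack of overlap in them follows from the choice. The gene with the largest fitted rise had a low level on day 4 and no reads on day 1. Dapma7bEVm011709t1 stood at 3.52, 4.77, 4.09 and 2.35 CPM in replicates 1 to 4 of copper day 4, and had no count in any of the 4 copper libraries of day 1. With day 1 set to the 3 counts per library that a count of 0 allows, its mean on day 4 was at least 13.2-fold higher (adjusted p = 0.000709). On day 2 of copper it had 0.647 CPM in replicate 1 and no count in the other 3 libraries. Controls showed the same step, with 5.14, 10.8, 0.952 and 5.74 CPM on day 4 and no count on day 1.

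Dapma7bEVm019337t1 had the next largest fitted rise. Its levels were 23.9, 10.2, 13.8 and 36 CPM in copper day 4, against 0, 0, 0.183 and 0.0835 CPM in copper day 1. Day 4 held 1180 reads over its 4 libraries, against 4 on day 1. The ratio of these counts was 294, with an exact 95% interval of 114 to 1080 that covers counting error only. The adjusted p was 0.0113 in edgeR's test and 0.376 in limma-voom, an alternative test. Copper day 2 held 24.9, 19.1, 1.95 and 4.77 CPM. Controls did not show this pattern, at 4.65, 6.85, 17.2 and 0.0869 CPM on day 4 and 35, 15.5, 21.2 and 0.488 CPM on day 1. Levels under 0.5 CPM were also found outside copper. In control they were in replicate 4 of days 1, 2 and 4, with 0.195 CPM on day 2. In arsenic they were in replicates 1, 2 and 3 of day 1 and replicate 1 of day 4. In the mixture they were in replicate 4 of day 1 and replicate 3 of day 4. The gene was thus near 0 in some libraries of every treatment.

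Dapma7bEVm002847t1 fell in copper and in every other treatment. It had 16.9, 14.5, 14.4 and 19.7 CPM in copper day 4, against 76.5, 96.6, 43.5 and 56.7 CPM in copper day 1. All 4 day-1 libraries were high. The log2 fold change was -2.06 (SE 0.51, adjusted p = 0.00789), and it stayed past the threshold in all 16 alternatives tried for it. The level was already low on day 2 of copper, at 12.7, 23.6, 24.1 and 18.6 CPM. The change between days 4 and 1 was -4.43 in arsenic, -2.40 in the mixture and -2.85 in controls (adjusted p = 3.27e-06, 0.00185 and 0.000601).

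Dapma7bEVm012792t1, with the largest fall that met the naming rule, was scarce throughout. It had 0.13, 0.227, 0.261 and 0.138 CPM in copper day 4, against 1.67, 1.2, 0.67 and 0.584 CPM in copper day 1. These are 10 reads in all on day 4 and 54 on day 1. The log2 fold change was -2.40 (SE 0.75, adjusted p = 0.0341), and the call was lost in 7 of 14 alternatives, 6 of which left out 1 copper library, with adjusted p up to 0.113 without day-1 replicate 1. Controls had 1.88, 0.138, 0.952 and 1.04 CPM on day 4 and 1.25, 0.889, 1.31 and 0.325 CPM on day 1, with a change of 0.06 on the log2 scale (adjusted p = 0.961).

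In TMM-scaled CPM, much of the gain among called genes lay in a few abundant transcripts. Summed over the genes called higher, the gain was 124800 CPM, and 32.18% of it lay in 3 genes and 43.95% in 10. The genes called lower together fell by 22110 CPM. As shares of unscaled counts in copper, the genes called higher averaged 25.45% on day 4 and 15.05% on day 1. The genes called lower averaged 6.192% and 9.172%. The gap between gain and loss thus depends on the scaling. The gene with the largest gain in CPM, named after its values were seen, was Dapma7bEVm012028t1. It had 25600, 28200, 38300 and 34300 CPM in copper day 4, against 15200, 14700, 13300 and 17300 CPM in copper day 1. Day 2 of copper lay between, at 29000, 20200, 25400 and 27600 CPM. Its copper mean was thus 31590 CPM on day 4 and 15130 CPM on day 1 (log2 fold change 1.06, SE 0.23, adjusted p = 0.00194). Controls averaged 31290 ± 8533 CPM on day 4 and 17710 ± 3572 CPM on day 1 (SD, n = 4 each), and the fitted change there was 0.82 (log2, SE 0.22, adjusted p = 0.019).

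Dapma7bEVm014991t1, with the next largest gain, moved alike. It had 22800, 25600, 31300 and 28200 CPM in copper day 4, against 12900, 11600, 10400 and 17500 CPM in copper day 1. The groups did not overlap, and its fitted change was 1.04 on the log2 scale (SE 0.21, adjusted p = 0.00132). In controls its log2 fold change was 0.60 (SE 0.21) and did not pass the threshold (adjusted p = 0.0635). Both genes stayed past the threshold in copper under all 16 alternatives tried for each.

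The 6 genes with the largest losses in CPM were not called, with adjusted p between 0.069 and 0.112. Their summed level was 28300, 29560, 28790 and 30720 CPM in copper day 4, against 34410, 68190, 58810 and 28540 CPM in copper day 1. Replicates 2 and 3 of day 1 were high, and replicate 4 of day 1 lay among the day-4 libraries. In these genes the day-1 libraries of copper differed among themselves as much as the days did.

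**Figure D2:**
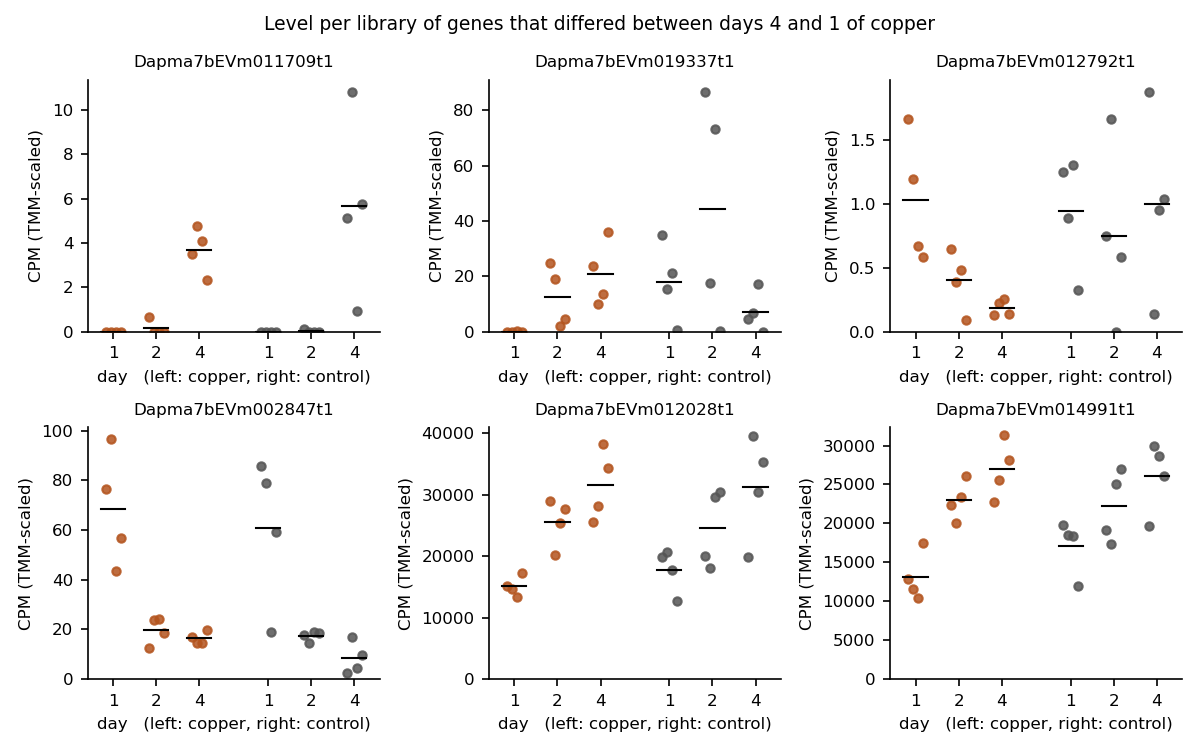
Levels of 6 genes in each library, in TMM-scaled CPM on linear axes, by day, with copper on the left (orange) and control on the right (grey) of each panel; a bar marks the mean of 4 libraries. Dapma7bEVm011709t1 reaches 2.35 to 4.77 CPM on day 4 of copper and appears in controls on the same day, whereas Dapma7bEVm019337t1 is near 0 in copper day 1 and not in 3 of the 4 control libraries of that day.

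Unexposed animals shared much of the change. Between days 4 and 1 of control, 1423 genes (9%) were called, 718 higher (4.54%) and 705 lower (4.46%). Copper and control libraries are separate, so the lists can be set beside each other. Of the genes higher on day 4 in copper, 457 were also called higher in control, which is 45.11% of the copper list and 63.65% of the control list. Of the genes lower on day 4 in copper, 318 were also called lower in control, which is 41.14% of the copper list and 45.11% of the control list. No gene was called in opposite directions.

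The direction was shared far more widely than the call. Of the 1013 genes higher in copper, 984 (97.14%) also had a positive change in control, as did 49.81% of all tested genes. Of the 773 genes lower in copper, 761 (98.45%) also had a negative change in control, as did 50.19% of all tested genes. Genes called higher in copper had a median log2 fold change of 0.80 in copper and 0.56 in control. The list chosen in control instead gave 0.71 in copper and 0.80 in control. For falls, the list chosen in copper had medians of -0.47 in copper and -0.37 in control, and the list chosen in control had -0.36 in copper and -0.47 in control. Whichever treatment chose the list thus showed the larger median. Across all tested genes the 2 sets of log2 fold changes had a Pearson correlation of 0.515, a description across genes that are not independent replicates.

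Control day-1 replicate 4, the library that stood apart, had a large part in the control list. Without it, 213 genes were called higher and 60 lower between days 4 and 1 of control. Then 171 of the genes higher in copper were shared, which is 16.88% of the copper list and 80.28% of the control list. The shared falls numbered 28, or 3.622% of the copper list and 46.67% of the control list. The direction in control still matched for 975 of the genes higher in copper (96.25%) and 754 of those lower (97.54%), with median control changes of 0.43 and -0.27. The correlation across genes was then 0.419. The number of shared calls thus rested on this library, while the share with the same direction moved by less than 1 percentage point. Leaving out control day-1 replicate 3 instead gave 1323 genes higher and 1471 lower in control and 1217 shared calls. The shared calls, with both lists refitted, also moved by over 1.5 times without replicate 2 or 4 of control day 4 (290 or 453), without replicate 3 or 4 of copper day 4 (442 or 444) and without replicate 1 or 3 of copper day 1 (394 or 383). The control lists were also shorter without control day-4 replicate 1 (387 lower), 2 (280 higher and 137 lower) or 4 (438 higher and 306 lower), and without control day-1 replicate 2 (445 lower).

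**Figure D3:**
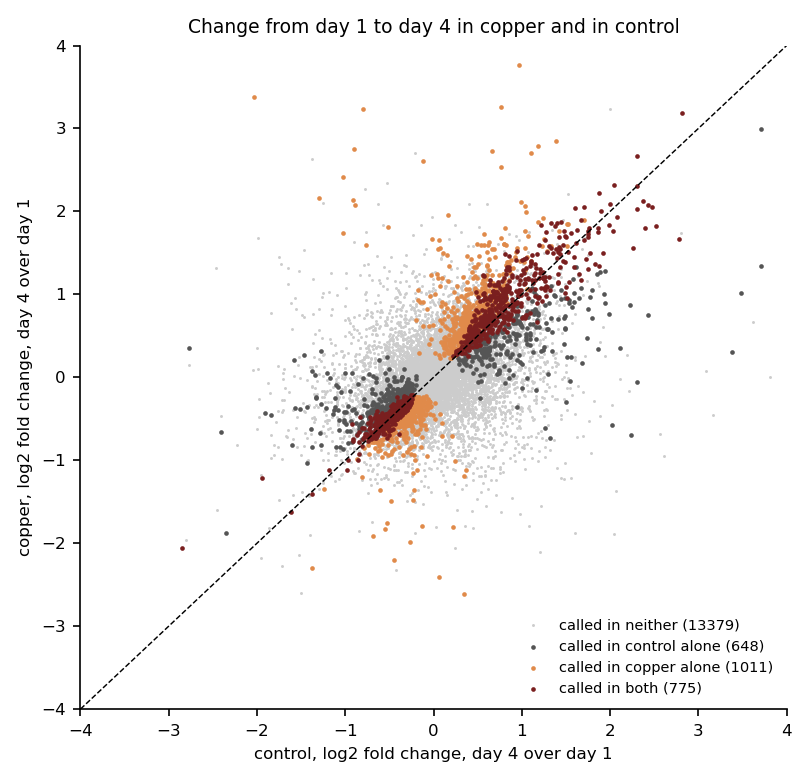
Log2 fold change of day 4 over day 1 for each tested gene, in copper (vertical) and in control (horizontal), with genes called in both (775), in copper alone (1011), in control alone (648) or in neither (13379) and the line of equal change dashed; 18 genes lie outside the axes. Genes called in both lie along the dashed line on either side of 0, and the genes called in copper alone lie mostly in the same 2 quadrants.

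A test of the difference found no gene whose change with time differed between copper and control. The copper change minus the control change was called for 0 of 15813 genes (0%) by edgeR's quasi-likelihood test, with a lowest adjusted p of 0.311, and 494 genes had an unadjusted p under 0.05, of which 245 were positive and 249 negative. DESeq2 called 2 genes, Dapma7bEVm019337t1 and Dapma7bEVm010197t1, the second of which averages under 1 CPM on both days of copper, falls outside the naming rule and is named because the count is small. In edgeR's test, leaving out control day-4 replicate 3 gave 4 calls and leaving out its replicate 2 gave 1. The median SE of a difference was 0.33 on the log2 scale; for copper alone it was 0.23. The 556 genes called higher in copper and not in control (54.89% of the list) had a median change of 0.74 in copper and 0.40 in control, and 527 of them were positive in control. The 455 genes called lower in copper and not in control (58.86%) had medians of -0.48 in copper and -0.29 in control, and 443 of them were negative in control. Of the 556 and 455 genes, 64 and 26 had an unadjusted p under 0.05 for the difference, beside the 494 of all 15813 tested. Choosing genes called in copper and not in control from the same libraries itself favours such differences. With control day-1 replicate 4 left out of the control list, 842 rises (83.12%) and 745 falls (96.38%) were called in copper and not in control, with median control changes of 0.38 and -0.26, and 804 and 726 of them had the same sign in control. Of the 842 and 745 genes, 145 and 53 had an unadjusted p under 0.05 for the difference, and 0 were called. The choice favours a difference here too, and the count over all genes for this refit is not given. A call in copper without one in control is therefore not shown to be a difference between them.

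Using the arsenic libraries as well gave a smaller error and the same count. Against the mean of the control and arsenic changes, 0 genes (0%) were called by edgeR's quasi-likelihood test, the lowest adjusted p was 0.262, the median SE was 0.28 and 645 genes had an unadjusted p under 0.05. DESeq2 called 1 gene, Dapma7bEVm028938t1, and so did edgeR's test without arsenic day-4 replicate 2.

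Dapma7bEVm028938t1 had the lowest unadjusted p among positive differences to control. Its levels were 53.4, 39.8, 48.5 and 56 CPM in copper day 4 and 9.66, 8.31, 6.21 and 5.68 CPM in copper day 1. In controls they were 3.75, 5.33, 9 and 6.69 CPM on day 4 and 4.29, 5.49, 2.89 and 2.93 CPM on day 1. Each copper library of day 4 was above every control library, and the copper libraries of day 1 were above the day-1 controls too. The log2 fold change was 2.73 in copper (SE 0.35, adjusted p = 1.49e-06) and 0.66 in control (SE 0.36, adjusted p = 0.24). It was 2.43 in the mixture, which also contains copper (adjusted p = 9e-06), and 0.63 in arsenic (adjusted p = 0.473). The difference between copper and control was 2.07 (SE 0.50) and was not called in edgeR's test (adjusted p = 0.558).

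The other 3 genes named for this difference were not called either. Dapma7bEVm008232t1 had 6.45, 4.85, 5.66 and 10.8 CPM in copper day 4 and 1.02, 2.39, 3.17 and 1.59 CPM in copper day 1, against 2.94, 2.77, 5.36 and 1.91 CPM in control day 4 and 7.03, 5.9, 9.46 and 3.98 CPM in control day 1. The difference was 2.76 (SE 0.68, adjusted p = 0.558). Copper libraries were higher on day 4 without overlap, while the control values of the 2 days overlapped. The mixture, which also contains copper, had 1.67, 4.07, 2.52 and 6.61 CPM on day 4 and 2.92, 3.21, 4.97 and 1.39 CPM on day 1, with a log2 change of 0.29 (adjusted p = 0.773). For Dapma7bEVm012782t1 and Dapma7bEVm011060t1 the differences were -2.36 (SE 0.57, adjusted p = 0.558) and -3.08 (SE 0.77, adjusted p = 0.605). Both rested on control day 4, where Dapma7bEVm011060t1 had 164, 8.65, 5.97 and 92.6 CPM. Its copper libraries held 5.28, 11.3, 8.1 and 8.23 CPM on day 4 and 5.66, 8.31, 7.06 and 5.42 CPM on day 1. High values were thus seen in control replicates 1 and 4 of day 4 and in no library given copper alone on either day. The mixture held 47.3, 8.15, 9.26 and 8.83 CPM on day 4, high in replicate 1, and 6.22, 6.75, 4.16 and 7.91 CPM on day 1 (log2 change 1.53, adjusted p = 0.0846). Without control day-4 replicate 3 both differences passed the threshold (adjusted p = 0.0469).

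The metal-exposed groups that share no library with copper gave a similar picture with fewer calls. Between days 4 and 1 of the mixture, 954 genes (6.03%) were called, 576 higher (3.64%) and 378 lower (2.39%). The mixture shared 412 of the copper rises (40.67% of the copper list, 71.53% of its own) and 157 of the copper falls (20.31% and 41.53%). Between days 4 and 1 of arsenic, 302 genes (1.91%) were called, 267 higher (1.69%) and 35 lower (0.221%). Arsenic shared 204 of the copper rises (20.14% of the copper list, 76.4% of its own) and 13 of the copper falls (1.682% and 37.14%). Genes higher in copper had median changes of 0.55 in the mixture and 0.34 in arsenic, and genes lower in copper had -0.30 and -0.19. The direction in arsenic matched that in copper for 886 of the rises (87.46%) and 726 of the falls (93.92%). Over all tested genes, 45.49% had a positive and 54.51% a negative change in arsenic.

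Counted over the mixture, arsenic and control together, 167 genes higher in copper were called higher in all 3, 171 in 2, 230 in 1 and 445 in none. Of the genes lower in copper, 6 were called lower in all 3, 113 in 2, 244 in 1 and 410 in none. Among those called in none, 297 of the rises and 353 of the falls still had the same sign in all 3. The tally rests on control day-1 replicate 4: without it in the control list, the rises numbered 117 in all 3, 110 in 2, 216 in 1 and 570 in none, and the falls 5, 20, 143 and 605. Of those in none, 413 rises and 537 falls then had the same sign in all 3. The share of all tested genes with the same sign in all 3 was not counted for either tally.

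The share of reads taken by these genes followed the day in every treatment. The 1013 genes called higher took 23.8%, 25%, 27% and 26% of the counts in the copper libraries of day 4 and 15%, 15.6%, 13.3% and 16.3% in those of day 1, a separation that the choice of genes fixed. In libraries that did not choose the genes, their share was 24.9 ± 1.51% on day 4 and 16.9 ± 2.47% on day 1 of the mixture (SD, n = 4 each). It was 22.1 ± 2.61% on day 4 and 16.4 ± 3.03% on day 1 of arsenic, and 24.4 ± 2.55% on day 4 and 16.6 ± 2.63% on day 1 of control. In control the lowest library of day 4, at 21.3%, was above the highest of day 1, at 18%. The 773 genes called lower took 6.19 ± 0.371% in copper day 4 and 9.17 ± 0.987% in copper day 1, against 6.53 ± 0.63% in control day 4 and 9.13 ± 1.57% in control day 1.

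**Figure D4:**
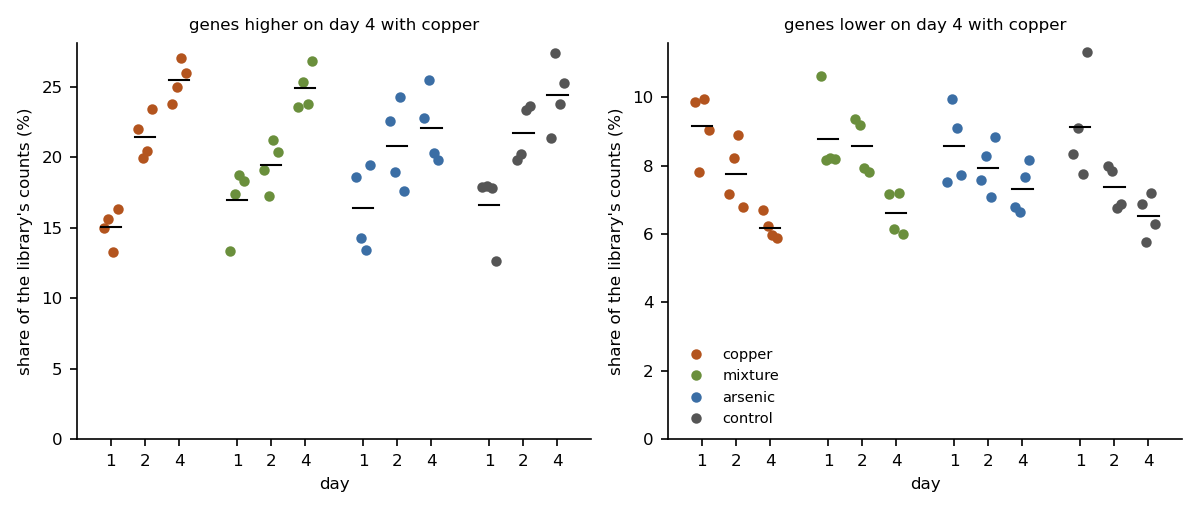
Share of each library's counts (%) held by the genes called higher (left) or lower (right) on day 4 of copper, by day, for copper, mixture, arsenic and control; points are libraries and bars means of 4. The share of the genes higher on day 4 increases with day in each treatment, with means of 15.1%, 21.5% and 25.5% on days 1, 2 and 4 of copper and 16.6%, 21.7% and 24.4% in control.

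On day 2 of copper, 892 of the 1013 rises and 724 of the 773 falls lay between their day-1 and day-4 levels. The genes were chosen for a gap between those same day-1 and day-4 libraries, so the choice itself favours a day-2 level between them. In control, which did not choose them, the rises averaged 16.57%, 21.74% and 24.43% of counts on days 1, 2 and 4. The falls averaged 9.127%, 7.37% and 6.533% there. Copper day 2 against day 1 and day 4 against day 2 share libraries with each other and with day 4 against day 1, so their values are given side by side only. Between days 2 and 1 of copper, 302 genes (1.91%) were called, 243 higher (1.54%) and 59 lower (0.373%), of which 106 changed 2-fold or more. Between days 4 and 2, 194 genes (1.23%) were called, 129 higher (0.816%) and 65 lower (0.411%), of which 80 changed 2-fold or more. These counts too depended on single libraries. For days 2 and 1 the count was 114 without day-1 replicate 3 and 143 without day-2 replicate 4. For days 4 and 2 it was 112, 46, 92 or 60 without replicate 1, 2, 3 or 4 of day 4, and 54, 31 or 109 without replicate 2, 3 or 4 of day 2.

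The genes higher on day 4 were, on the median, further along on day 2 than the genes lower on day 4, a difference that was not tested. These positions also use the libraries that chose the genes. With day 1 set to 0% and day 4 to 100% on the log2 scale, the median gene higher on day 4 stood at 57.11% on day 2, with the middle 50% of genes between 39.13% and 76.81%. The median gene lower on day 4 stood at 42.46%, with the middle 50% between 26.53% and 57.04%. In steps, genes higher on day 4 had median log2 changes of 0.45 between days 1 and 2 and 0.33 between days 2 and 4. Genes lower on day 4 had -0.20 between days 1 and 2 and -0.27 between days 2 and 4. On day 2, 82 of the rises were past their day-4 level and 39 were on the far side of their day-1 level, compared with 12 and 37 of the falls.

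**Figure D5:**
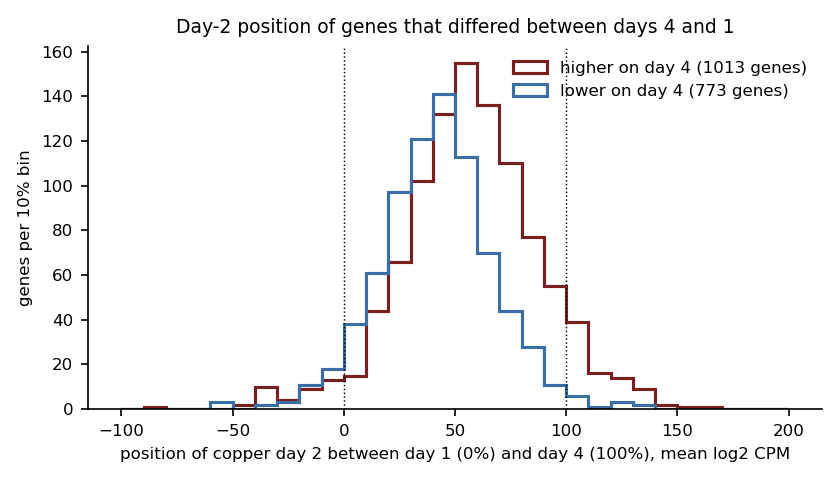
Number of genes by where copper day 2 lay between day 1 (0%) and day 4 (100%) on the mean log2 CPM scale, in bins of 10%, for genes called higher (dark red, 1013) and lower (blue, 773) on day 4. The genes higher on day 4 have their median at 57.11% and those lower on day 4 at 42.46%, and the values beyond the axis are placed in the end bins.

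Named by the same rule, the genes that rose between days 2 and 1 of copper included an early and strong one. Dapma7bEVm006082t1 had 488, 678, 408 and 476 CPM in copper day 2, against 88.1, 55.9, 55.7 and 58.8 CPM in copper day 1. The log2 fold change was 2.99 (SE 0.24, adjusted p = 2.27e-11). On day 4 it stood lower than on day 2, at 285, 294, 332 and 365 CPM, and above every day-1 library. Its change between days 4 and 1 was 2.31 in copper (SE 0.23, adjusted p = 1.07e-08) and 2.30 in control (SE 0.23, adjusted p = 1.62e-08).

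Dapma7bEVm011064t1 had 7.87, 30, 14.7 and 9.82 CPM in copper day 2, against 0.65, 2.33, 1.64 and 2.09 CPM in copper day 1. The day-2 libraries were uneven, with replicate 2 highest. The log2 fold change was 3.19 (SE 0.60, adjusted p = 0.00152 by edgeR and 0.0882 by limma-voom). Day 4 of copper was uneven, with 21.8, 3.79, 22.1 and 14.8 CPM. Controls also rose, with means of 2.61, 22.8 and 18.7 CPM on days 1, 2 and 4.

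The falls between days 2 and 1 did not all last to day 4. Dapma7bEVm001276t1 had 1.51, 7.57, 6.05 and 8.68 CPM in copper day 2, against 15.1, 42.3, 35.2 and 17 CPM in copper day 1 (log2 fold change -2.20, SE 0.54, adjusted p = 0.0188). On day 4 it was back at 17.4, 55.5, 36.4 and 49.1 CPM, a range that overlaps day 1. Its controls averaged 10.2 CPM on day 2, below both control day 4 and control day 1, at 39.3 and 25.7 CPM. The call for days 2 and 1 was lost in 5 of 15 alternatives, with an adjusted p up to 0.0864 without day-1 replicate 3. Dapma7bEVm020058t1 had 0.216, 0.492, 0.0695 and 0.191 CPM in copper day 2, against 2.41, 1.46, 2.37 and 1.17 CPM in copper day 1 (log2 fold change -2.95, SE 0.67, adjusted p = 0.00877, and 0.051 without day-2 replicate 3). Its control means were also lowest on day 2, at 1.31, 0.459 and 1.09 CPM on days 1, 2 and 4.

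Between days 4 and 2 of copper both genes named as rises had few reads. Dapma7bEVm016191t1 had 0.912, 2.12, 0.958 and 0.277 CPM in copper day 4, against 0.108, 0.0983, 0 and 0.0954 CPM in copper day 2. The ratio of 57 reads to 3 was 15.5, with an exact 95% interval of 5.03 to 77.1 for counting error only (adjusted p = 0.0297, lost in 4 of 14 alternatives with values up to 0.148 without day-2 replicate 3). Dapma7bEVm011709t1, described above, was the other rise (log2 fold change 4.61, SE 1.11, adjusted p = 0.034, lost in 7 of 14 alternatives, each of which left out 1 library, with values up to 0.158).

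The named falls between days 4 and 2 had more reads than the rises. Dapma7bEVm026774t1 had 3.32, 0.758, 3.48 and 2.56 CPM in copper day 4, against 11.1, 8.75, 12.7 and 8.39 CPM in copper day 2 (log2 fold change -2.02, SE 0.42, adjusted p = 0.0121, up to 0.0661 without day-4 replicate 2). Dapma7bEVm029612t1 had 7.3, 3.79, 7.58 and 12.4 CPM in copper day 4, against 25.4, 21.8, 31.2 and 36.4 CPM in copper day 2 (log2 fold change -1.88, SE 0.47, adjusted p = 0.034, lost in 6 of 15 alternatives with values up to 0.146 without day-4 replicate 2). Its day-1 levels of 12, 15.3, 6.64 and 7.18 CPM overlapped those of day 4, so it was high on day 2 alone among the 3 days of copper. Its means also peaked on day 2 without copper, at 9.40, 20.8 and 9.87 CPM on days 1, 2 and 4 of control. In arsenic they were 9.27, 24.5 and 12.3 CPM. For Dapma7bEVm026774t1 the control means were 6.66 CPM on day 2 and 5.45 CPM on day 4.

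A small group of genes had reads on day 4 and none on day 1 in both copper and control. A rule chosen after the data were seen took genes with no count in any copper library of day 1. It also asked for at least 3 counts in each copper library of day 4. All 5 genes that met it were called, which the rule itself favours, as it uses the same libraries. They could pass the count filter only through libraries where they had reads. No gene met the opposite rule. The same 5 genes, and no others, met that rule in control, and Dapma7bEVm011709t1 and Dapma7bEVm016191t1 are among them. Their summed level was 8.15, 11.1, 7.58 and 4.91 CPM in copper day 4, against 0 in all 4 copper libraries of day 1. In controls it was 12.6, 21.9, 2.86 and 11.8 CPM on day 4 and 0 on day 1. On day 2 of copper it was 1.40, 0.0983, 0 and 0.0954 CPM, so reads were almost confined to replicate 1 on that day.

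The mixture had 3.01, 3.26, 1.71 and 2.85 CPM of these 5 genes on day 4 and none on day 1. Arsenic had 5.57, 4.33, 8.95 and 8.66 CPM on day 4. On day 1 of arsenic, replicate 3 held 6.51 CPM, from 84 reads over all 5 genes, while its other 3 libraries held at most 0.062 CPM. One library of day 1 thus had a level in the range of day 4.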

How the data were processed

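Whole-body RNA was sequenced in 48 libraries of 12 treatment-by-day groups. The authors deposited 1 count per gene and library; the table's name calls it normalised, yet it holds whole numbers with unequal library totals (7.934 to 20.06 M, median 13.28 M) which were treated as unscaled counts. TopHat2 2.1.1, HTSeq and edgeR appear in the submitters' processing notes without role or order. The genome build, the gene models and the strandedness of counting were not given in the sources used here. Each of the 16066 deposited genes had at least 1.002 CPM in 3 libraries.

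Genes with at least 14 counts in at least 4 libraries were tested (15813; 253 were left out). edgeR 4.0.16 in R 4.3.3 fitted 1 mean per group over all 48 libraries with TMM scaling, with 36 residual degrees of freedom and a common biological coefficient of variation of 23.53%. The quasi-likelihood F test was two-sided, with Benjamini-Hochberg adjustment over all tested genes. The SE of a log2 fold change is its size divided by the square root of F. Levels are TMM-scaled CPM; per-library values are given in replicate order. A count of 0 allows 3 counts, or 0.183 to 0.324 CPM in copper libraries, for counting error only. The steps were tested on simulated data with known changes.

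Alternatives were no filter, size factors of the DESeq2 kind, DESeq2 1.42.0, limma-voom (limma 3.58.1), fewer groups in the fit, a replicate block, a 2-fold minimum and leaving out each library; total-count scaling was chosen after seeing the data. For each comparison within copper, the text names the 2 largest rises and the 2 largest falls among called genes whose days do not overlap and whose mean reaches 1 CPM on either day. For the copper minus control change, with no gene called, it names the 2 positive and 2 negative differences of lowest p among genes that average at least 1 CPM on either copper day, which passes over scarcer genes of lower p. The libraries, lists and tests were chosen with earlier results of these data known. In the 12 pairs of copper libraries within a day, counts differed by more than sampling noise, with a chi-square of at least 12.2 for each degree of freedom.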

Additional observations from a re-analysis of the deposited data

Results flagged for a closer look

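Among 110 groups of 4 libraries checked for a value far from the other 3, 8 had one, where chance gives about 1 in 20, or 5.5. In copper day 2, replicate 4 had 89 genes without a count and the nearest library 73. In the same group Dapma7bEVm011709t1 had 0.647 CPM in replicate 1 and 0 in the others, and Dapma7bEVm016191t1 had 0 CPM in replicate 3 and at least 0.0954 in the others. In copper day 1, Dapma7bEVm006082t1 had 88.1 CPM in replicate 1 and at most 58.8 CPM in the others, all below every library of copper day 2. In control day 4, replicate 4 had a median correlation of 0.972 with its group, and the next value was 0.968. In control day 1, the genes called higher on day 4 of copper took 12.6% of the counts in replicate 4 and at least 17.8% in the others. Also in control day 1, Dapma7bEVm020058t1 had 1.7 CPM in replicate 2 with 1.23 CPM next, and Dapma7bEVm012782t1 had 1.79 CPM in replicate 1 with 3.06 CPM next.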

How the results depend on the processing

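DESeq2 called 2 genes for the copper minus control change, 1 for copper minus the mean of control and arsenic, 472 for copper days 2 and 1 and 360 for days 4 and 2. With total-count scaling 2353 genes were lower on day 4 of copper, 1436 of control, and 1376 calls were shared. With copper and control libraries of the compared days alone, 266 were lower in copper and 188 in control, 397 were shared and 324 differed between copper days 4 and 2. Requiring 2-fold left 330 higher and 28 lower in copper and 240 and 47 in control. No filter, size factors of the DESeq2 kind and limma-voom kept these counts within 1.5 times.

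Leaving out 1 library gave 438 to 1232 genes higher and 112 to 1164 lower in copper, and 213 to 1323 higher and 60 to 1471 lower in control. Shared calls ran from 204 to 1217, copper days 2 and 1 from 114 to 297, and days 4 and 2 from 31 to 155. The copper minus control change gave 0 to 4 calls, with 4 lacking control day-4 replicate 3 and 1 lacking replicate 2; against control and arsenic it gave 0 to 1. The causes were not tested.

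Same-numbered copper libraries of days 4 and 1 had correlated deviations of -0.0447 to 0.0345, and differently numbered ones -0.179 to 0.214. For copper days 2 and 1 the ranges were -0.0427 to 0.212 for same-numbered and -0.248 to 0.152 for differently numbered libraries. For copper days 4 and 2 they were -0.0717 to 0.106 and -0.124 to 0.0972. Control days 4 and 1 gave -0.221 to 0.0574 and -0.159 to 0.156. Whether replicate numbers pair the libraries was not tested. With a replicate block, 914 genes were higher and 634 lower in copper, 626 and 583 in control, 651 were shared, 260 and 154 were called for the copper steps, and 0 for both differences.

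Of 302 repeats for the named genes, 266 kept both direction and side of the threshold and 0 reversed. The genes were chosen from these same libraries, so the choice itself favours a kept direction. For the copper minus control change, keeping the side of the threshold means staying uncalled. Of 18 named results, 7 kept both in every repeat.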
